A study of Mus musculus with 9 samples.

Results

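The genes of the proteasome were followed through a mouse tumour line and its derivatives. They were taken as every symbol that begins with Psm, a letter from a to g and a number, without the immunoproteasome genes Psmb8, Psmb9 and Psmb10 and without pseudogenes named -ps. This gave 47 of the 15768 symbols of the table: 15 core genes (Psma and Psmb), 27 regulatory genes (Psmc, Psmd and Psme) and 5 others (Psmf1 and Psmg1 to Psmg4). The naming rule also caught 3 genes that are not known as subunits of the particle: Psmc3ip, a factor of meiotic recombination, Psme3ip1, a protein that binds the activator PSME3, and Psme2b, a copy of Psme2. RNA-seq compared LLC1, a cell line from a Lewis lung carcinoma of the mouse, with SCC1 and SCC2, subclones derived from it by limiting dilution and passaged 5 to 8 times. Each line has 3 libraries, and all 9 are labelled as untreated wild-type tumour cells, from lung and grown in the same medium with serum and antibiotics. Each subclone line is 1 clone.

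The proteasome degrades proteins that carry ubiquitin chains. Its barrel-shaped core is a stack of rings: outer rings of alpha subunits (Psma genes), which gate the entry, and inner rings of beta subunits (Psmb genes), of which PSMB5, PSMB6 and PSMB7 cut proteins. A regulatory particle caps the barrel. Its base holds a ring of ATPases (Psmc genes) that unfold the substrate, and the ubiquitin receptor PSMD4. Its lid (most Psmd genes) holds PSMD14, which removes ubiquitin. The Psme genes encode other caps that open the core without ubiquitin, and Psmg genes, with Psmd5, Psmd9 and Psmd10, encode chaperones of assembly. Tumour cells are known to lean on this machinery because they make much misfolded and unbalanced protein.

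A known control of the family is the transcription factor NRF1 (gene Nfe2l1), which binds antioxidant-type elements in proteasome promoters when proteolysis is short. Promoters are shown here because most regulatory genes were higher in the same subclone. RefSeq promoters (GRCm38.p6) were at hand for 40 of the 47 genes, in 44 windows that run from 250 bases before to 50 bases after a start. Each was searched on both strands for TGACNNNGC and TGAGNNNGC, forms of the antioxidant element, and for the NF-Y box CCAAT. The stretches below hold 100 bases each, with every match that lies within them in capitals. A match on the other strand is shown as its reverse complement. Psmb5 is a catalytic core gene, Psmc6 and Psmd12 are regulatory genes that rose in SCC1, and Psmd8 is the regulatory gene that fell. Psmb5, Psmc6 and Psmd12 were picked for a TGACNNNGC match before the start, and Psmd8 was added without one. The choice thus fixed this contrast. The stretches run from 250 to 151 bases before the start for Psmc6 and Psmd12, and from 100 to 1 for Psmb5 and Psmd8. Psmd12 has a further TGAGNNNGC match (first base at -28) outside its stretch.
Psmb5 (chr14:54617996-54618095, minus strand): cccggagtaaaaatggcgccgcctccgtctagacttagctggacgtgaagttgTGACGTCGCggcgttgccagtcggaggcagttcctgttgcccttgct
Psmc6 (chr14:45329574-45329673, plus strand): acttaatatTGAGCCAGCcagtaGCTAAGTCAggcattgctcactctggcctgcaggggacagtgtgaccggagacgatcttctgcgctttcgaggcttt
Psmd12 (chr11:107479278-107479377, plus strand): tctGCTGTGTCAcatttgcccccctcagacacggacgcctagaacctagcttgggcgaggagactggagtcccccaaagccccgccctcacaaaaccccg
Psmd8 (chr7:29180674-29180773, minus strand): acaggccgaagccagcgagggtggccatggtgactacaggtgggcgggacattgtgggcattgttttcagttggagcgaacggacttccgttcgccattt

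TGACNNNGC was found in 6 of the 44 proteasome windows (13.6%) and in 12.4% of all 32851 promoter windows. TGAGNNNGC was found in 14 (31.8%) against 17.6%, and CCAAT in 15 (34.1%) against 37.4%. By class, TGACNNNGC was in 2 of 13 core windows and 4 of 27 regulatory windows, TGAGNNNGC in 6 and 7, and CCAAT in 7 and 8. These matches are letters in a window and were not tested as binding sites.

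The libraries held 17094808 to 19398657 fragments, worked back from the FPKM values (fragments per kilobase of gene, scaled to library size). Of the 47 genes, 46 reached the minimum of 1 FPKM in at least 3 libraries. They were counted with 170 to 7645 fragments per library, with a median of 1907.5. Psmb11, the core gene of the thymus, was above 0 in 1 library of LLC1 only (0.0126 FPKM). All changes given are differences of log2(FPKM + 1), and adjusted p-values come from limma over 10519 genes, with 0.05 as the threshold. The labels do not tell whether the 3 libraries of each line were separate cultures. The p-values therefore reflect the spread among these samples alone, and that spread may be technical. Of 7 lung epithelial markers 5 were analysed. Their summed FPKM was 332 to 341 in LLC1, 445 to 455 in SCC1 and 231 to 232 in SCC2, nearly all from Krt8 and Krt18, while the lung-defining Sftpc and Nkx2-1 and the epithelial Cdh1 had line means of at most 0.0222. The 5 fibroblast markers summed to 571 to 598 FPKM in LLC1, 258 to 268 in SCC1 and 691 to 713 in SCC2, nearly all from Col3a1. The macrophage and leukocyte markers analysed (2 of 5) summed to 3.84 to 4.52, 8.36 to 10.4 and 2.78 to 3.22, nearly all from Cd68, with line means of Csf1r of at most 0.0182. Lymphocyte markers (2 of 4) summed to at most 0.318 and endothelial markers (3 of 3) to at most 0.0295 in any library. The part of other cells in the changes below was not tested, and in bulk RNA fewer cells of a type and less RNA per cell cannot be told apart.

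Transcript levels differed between subunits of the same particle, compared here as FPKM, which is per length. Among the 14 expressed core genes of LLC1, Psma3 was lowest with a mean of 53.1 ± 0.366 FPKM (SD, n = 3) and Psmb1 highest with 201 ± 5.34, a ratio of 3.79. By ring medians beta subunits stood above alpha subunits: the 7 beta genes had a median of 138 FPKM in LLC1 and the 7 alpha genes 76.0. The 17 Psm-named genes of the 19S regulatory particle had a median of 72.8. They ran from 37.4 ± 0.702 FPKM for Psmd11, a lid subunit, to 106 ± 2.54 for Psmd2, a base scaffold. Sem1, a 19S subunit without a Psm name, stood above them at 143 ± 5.06. The assembly chaperones with a Psm name were lower. Psmd9 had 9.96 ± 0.560 FPKM and Psmd10 18.9 ± 1.14, whereas the ATPase Psmc3 had 82.1 ± 1.22. The core maturation factor Pomp was not low, with 112 ± 3.68. Psmf1, which encodes the inhibitor-type factor PI31, had 12.7 ± 0.459. Psmb1 was the highest core gene and Psmd11 the lowest of the 17 Psm-named 19S genes in all 3 lines.

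**Figure D1:**
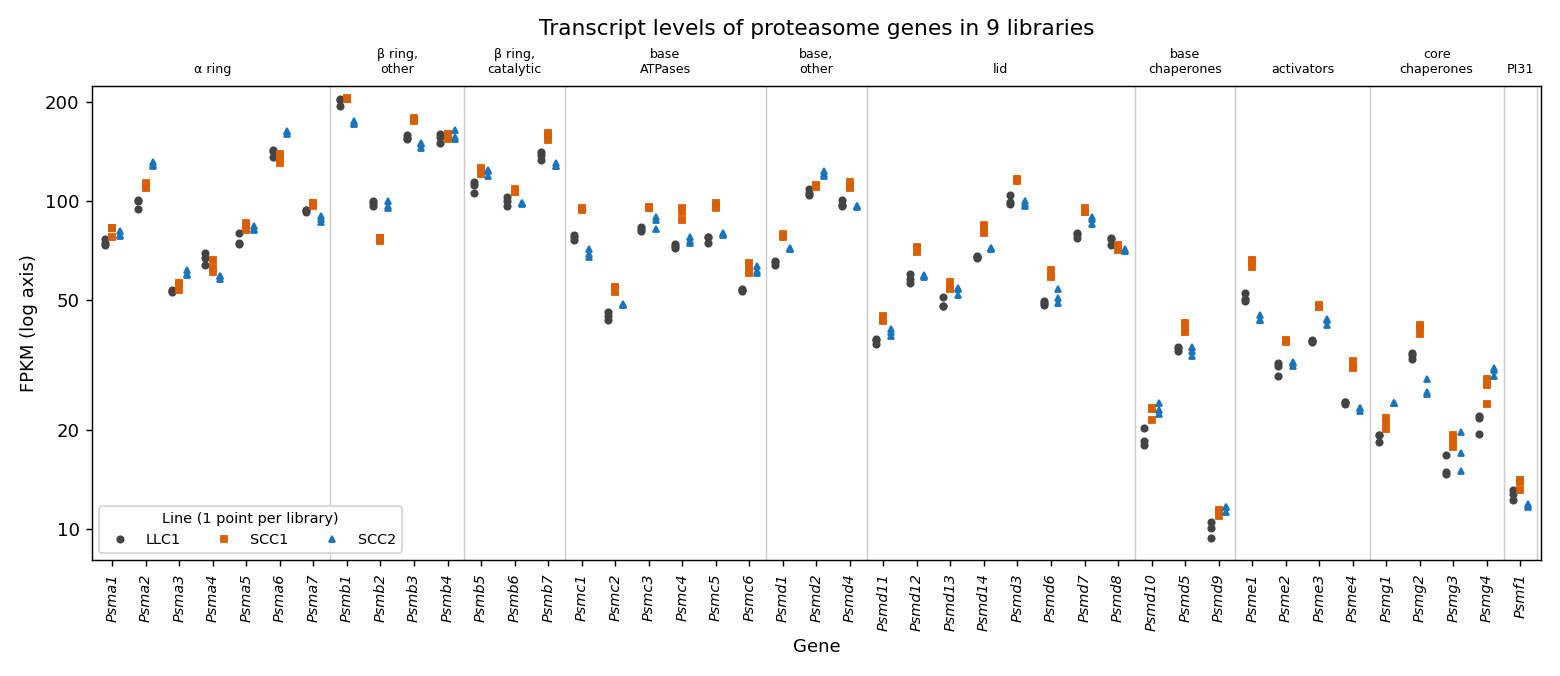
FPKM of the expressed proteasome genes (log axis), without the 3 genes matched by name alone, grouped by role, with 1 point for each of 9 libraries (LLC1 dark circles, SCC1 orange squares, SCC2 blue triangles). Psmb1 is the highest gene in each line and Psmd9 and Psmf1 are the lowest, and in most base and lid genes the SCC1 squares stand above the other lines.

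The comparison of SCC1 with LLC1 asks what changed in one subclone relative to the parental line. The regulatory genes were higher in SCC1 almost throughout: 26 of 27 (96.3%) rose and 1 fell, where 39.2% of all tested genes were higher and 30.9% lower (70.1% in either direction). Their median log2 change was 0.25, beside 0.033 over all tested genes. Of the 14 tested core genes 8 rose, 2 fell and 4 did not pass, with a median of 0.086. Without Psmc3ip, Psme2b and Psme3ip1, 23 of 24 regulatory genes rose and 1 fell. The changes were small in size and narrow in range, from -0.06 to 0.37 for the regulatory genes, with quartiles of 0.20 and 0.29. The difference between the classes was not tested.

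All 6 ATPases of the base rose in SCC1, where 39.2% of all tested genes were higher. Psmc5 had 74.6, 77.7 and 77.4 FPKM in the LLC1 libraries and 98.9, 96.6 and 95.2 in SCC1. The SCC1 libraries all lay above those of LLC1, and the mean was 26.5% higher (log2 change 0.34, SE 0.0218, limma adjusted p = 8.32e-08). Psmc4 rose by 0.33, Psmc1 by 0.28, Psmc2 by 0.26, and Psmc3 and Psmc6 by 0.21 each. In none of the 6 did the libraries of SCC1 and LLC1 overlap, as was also so for 72.3% of all tested genes.

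The other base genes rose as well. Psmd1, the larger scaffold of the base that binds other subunits, went from 64.9 ± 1.05 to 78.3 ± 0.868 FPKM (0.27, limma adjusted p = 1.80e-07). The ubiquitin receptor Psmd4 rose from 98.4 ± 2.38 to 111 ± 2.65 (0.18). Psmd2 changed least of them, from 106 ± 2.54 to 111 ± 1.16 (0.06, limma adjusted p = 0.0205). Adrm1 and Sem1 encode 19S subunits that do not carry a Psm name. Both rose too, Adrm1 from 69.0 ± 1.42 to 81.0 ± 1.12 FPKM and Sem1 from 143 ± 5.06 to 179.5 ± 1.22.

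Of 8 lid genes 7 rose and 1 fell, where 39.2% of all tested genes were higher and 30.9% lower. Psmd14, the deubiquitinase that strips the chain as the substrate enters, rose from 67.5 ± 0.393 to 82.4 ± 2.51 FPKM (0.28, limma adjusted p = 4.27e-07). Psmd6 and Psmd12 each rose by 0.29, Psmd7 by 0.24, Psmd11 by 0.22, Psmd3 by 0.21 and Psmd13 by 0.17. With chromosome medians removed Psmd3 (0.03, limma adjusted p = 0.237) and Psmd11 (0.05, 0.0963) did not pass. Psmd8, also a lid subunit, was the exception. It had 77.3, 73.7 and 76.3 FPKM in LLC1 and 72.9, 71.1 and 73.6 in SCC1, so that the lowest LLC1 library was just above the highest SCC1 library. Its change of -0.06 (limma adjusted p = 0.0283) did not pass without LLC1 replicate 1 (adjusted p = 0.113), LLC1 replicate 3 (0.0741) or SCC1 replicate 2 (0.111), or with limma's plain variance model (0.0656). The reads of some of these genes can belong to an overlapping gene: another annotated gene covers 10.1% of the exon bases of Psmd13, 25.5% of those of Psmd9, 21.2% of those of Psmc3ip, 12.1% of those of Psmb5 and 11.8% of those of Psmb7. Whether counting was strand-aware is not given in the sources used.

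The 4 activators all rose in SCC1, with a median of 0.34, where 39.2% of all tested genes were higher. Psme4 encodes PA200, a cap found in the nucleus. It had 24.3, 24.0 and 24.3 FPKM in LLC1 and 31.2, 32.4 and 30.9 in SCC1, which is 30.2% higher (0.37, SE 0.0251, limma adjusted p = 1.33e-07). Psme1, a subunit of the interferon-inducible cap PA28, had 52.6, 49.5 and 50.2 FPKM in LLC1 and 63.0, 66.0 and 65.6 in SCC1 (0.35, limma adjusted p = 5.04e-07). Psme3, the nuclear member of that family, had 37.4, 37.2 and 37.8 against 47.4, 48.2 and 47.5 (0.34, limma adjusted p = 8.20e-08). Psme2, the partner of PSME1, had 31.4, 29.2 and 32.1 against 37.1, 37.5 and 37.6 (0.27, limma adjusted p = 1.33e-05). SCC1 was the higher line in all 4 with no overlap, as was so for 72.3% of all tested genes in either direction. The values of Psme2 and of its copy Psme2b (0.20) are uncertain because the counting could split reads between them.

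Core genes moved less and not in one direction. The catalytic subunits rose by little: Psmb7, with trypsin-like activity, had 133.7, 141 and 138 FPKM in LLC1 and 159, 162 and 153 in SCC1 (0.20, limma adjusted p = 1.69e-05). Psmb5, with chymotrypsin-like activity, had 114, 106 and 112 against 125, 121 and 127 (0.17, limma adjusted p = 3.05e-04). Psmb6, with caspase-like activity, had 103, 99.7 and 96.6 against 107, 109 and 107 (0.10, limma adjusted p = 0.00133). All 3 catalytic genes had SCC1 libraries above those of LLC1, beside the 72.3% of all tested genes without overlap. The rise of Psmb6 turned into a fall of -0.07 (adjusted p = 0.0230) once chromosome medians were removed.

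Psmb2, a structural beta subunit, fell the most of all 46 genes in SCC1. It had 96.7, 99.0 and 100.01 FPKM in LLC1 and 77.3, 77.0 and 75.4 in SCC1, and its mean fell by 22.3% (-0.36, SE 0.0226, limma adjusted p = 6.37e-08). Psma6 also fell, from 142, 137 and 143 to 139, 131 and 134 FPKM. Its libraries overlapped, and the change of -0.06 (limma adjusted p = 0.0320) did not pass without LLC1 replicate 1 (0.0932), LLC1 replicate 3 (0.109), SCC1 replicate 2 (0.135) or SCC1 replicate 3 (0.0752). With chromosome medians removed Psma6 was at -0.10 (limma adjusted p = 0.00311). Psma3, Psma4, Psmb1 and Psmb4 did not pass. Psma4, at -0.08, passed as lower in several alternatives (limma adjusted p = 0.0150 without LLC1 replicate 3, and 0.00858 without SCC1 replicate 1) and as higher, at 0.10 (adjusted p = 0.0187), with chromosome medians removed. Psma1 (0.12), Psma2 (0.17), Psma5 (0.14), Psma7 (0.07) and Psmb3 (0.18) rose. With chromosome medians removed Psmb3 was at 0.01 (limma adjusted p = 0.674) and Psma7 at -0.03 (0.198).

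**Figure D2:**
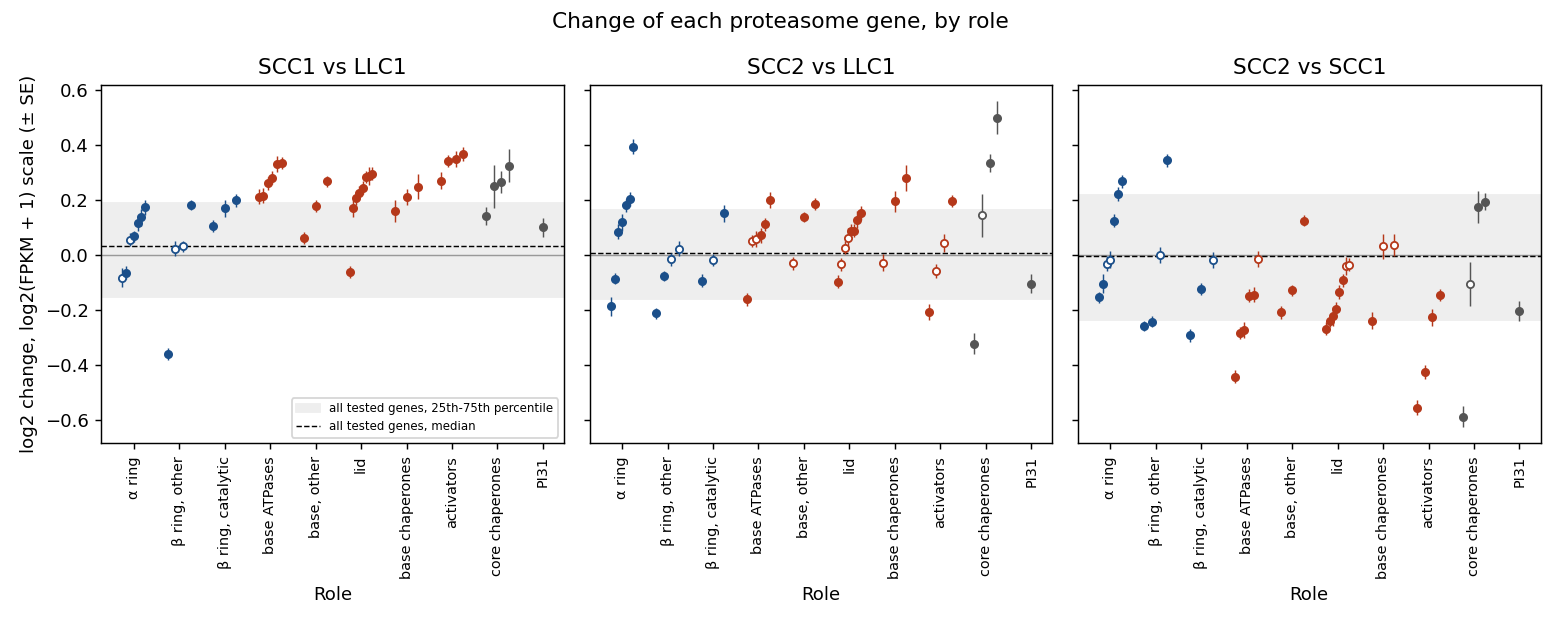
log2 change with SE of each gene by role in 3 comparisons, blue for core, red for regulatory and grey for other genes, filled where limma's adjusted p passed 0.05. The grey band and dashed line give the range between the quartiles and the median of all 10519 tested genes. In the left panel the red points sit between 0.06 and 0.37 except for Psmd8 at -0.06, while Psmb2 lies at -0.36.

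Assembly factors were also higher in SCC1, where 39.2% of all tested genes were higher. The base chaperones Psmd5 (0.21), Psmd9 (0.16) and Psmd10 (0.25) rose. All 4 core chaperones did: Psmg4 by 0.32, Psmg2 by 0.27, Psmg3 by 0.25 and Psmg1 by 0.14. With chromosome medians removed Psmg2 (0.03, limma adjusted p = 0.458) and Psmd10 (0.08, 0.157) did not pass. Psmd5, Psmd9, Psmg1, Psmg3 and Psmg4 still did. Pomp, which completes the maturation of the core, went from 112 ± 3.68 to 125 ± 2.44 FPKM (0.17, limma adjusted p = 4.10e-04). Psmf1 rose by 0.10 with libraries that overlapped, and was at -0.00037 (limma adjusted p = 0.993) with chromosome medians removed.

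Summed over genes, transcripts of the Psm-named 19S genes were higher relative to the core in SCC1. The 17 Psm-named genes of the 19S particle added up to 1194, 1185 and 1197 FPKM in the LLC1 libraries. They added up to 1394, 1398 and 1376 in SCC1 and 1232, 1245 and 1246 in SCC2. These sums leave out the 19S genes Adrm1 and Sem1. Sem1 had means of 143 FPKM in LLC1, 179.5 in SCC1 and 119.9 in SCC2, and Adrm1 had 69.0, 81.0 and 70.1. The ratio below was not computed with them. The 14 core genes added up to 1574, 1562 and 1552 FPKM in LLC1, 1644, 1634 and 1624 in SCC1, and 1579.5, 1585 and 1599 in SCC2. The 19S sum divided by the core sum was 0.763 ± 0.00739 in LLC1, 0.850 ± 0.00444 in SCC1 and 0.781 ± 0.00317 in SCC2 (SD, n = 3 each). The ratio in each SCC1 library was above that of every other library. It is a description of these genes, which were chosen with earlier results known, and no test was made of it. Chromosome medians were not removed from the sums.

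**Figure D3:**
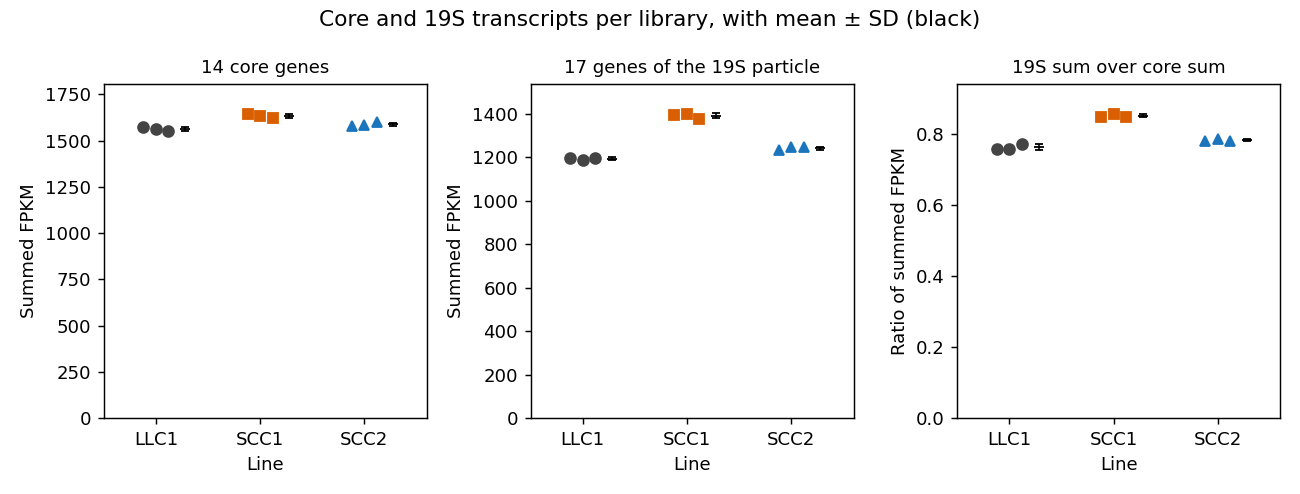
Summed FPKM of 14 core genes (left), of 17 Psm-named genes of the 19S particle (middle) and their ratio (right) in each library. Adrm1 and Sem1 are left out, and mean and SD are in black. The 19S sums of SCC1 lie between 1376 and 1398, above the 1185 to 1246 of the other lines, while core sums span 1552 to 1644 over all lines.

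SCC2 was compared with LLC1 to ask the same of the second subclone. The regulatory genes went both ways, with more rises than falls: 13 of 27 rose, 4 fell and 10 did not pass, where 34.7% of all tested genes were higher and 32.9% lower (67.6% in either direction). Their median log2 change was 0.063, beside 0.0075 over all tested genes. Of 14 core genes 6 rose, 5 fell and 3 did not pass, with a median of 0.0033. As shares, 42.9% of the core genes rose and 35.7% fell, near the background in both directions, and 48.1% of the regulatory genes rose and 14.8% fell.

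The largest rises in SCC2 were in assembly factors and an alpha subunit. Psmg4, a core chaperone, had 22.1, 21.7 and 19.4 FPKM in LLC1 and 30.4, 29.2 and 30.9 in SCC2, 43.1% higher (0.50, SE 0.0596, limma adjusted p = 1.63e-05). Psma2 had 100.05, 101 and 94.3 against 132, 129 and 128 (0.39, SE 0.0259, limma adjusted p = 1.14e-07). Psmg1, another core chaperone, had 18.3, 19.3 and 19.3 against 24.2 in each SCC2 library (0.33, limma adjusted p = 2.53e-06). Psmd10, also known as the oncoprotein gankyrin, had 18.6, 18.1 and 20.2 against 23.0, 22.3 and 24.2 (0.28, limma adjusted p = 2.15e-04), but with chromosome medians removed it was at 0.05 (0.339). With the same removal Psma2 was at 0.04 (limma adjusted p = 0.189), Psmg4 at 0.14 (0.0457) and Psmg1 at 0.12 (0.00484). None of these 4 genes overlapped between the lines, as was so for 70.7% of all tested genes.

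The largest falls in SCC2 were in Psmg2, Psmb1, Psme1 and Psma4. Psmg2, the chaperone that pairs with PSMG1, had 32.9, 33.9 and 34.5 FPKM in LLC1 and 25.8, 28.6 and 26.2 in SCC2 (-0.32, limma adjusted p = 1.67e-05). So the genes of this chaperone pair went opposite ways. Psmb1, the most abundant core transcript, had 203, 205 and 195 against 172, 172 and 175.5 (-0.21, limma adjusted p = 2.21e-06). Psme1 had 43.3, 43.3 and 44.9 FPKM in SCC2, below all LLC1 libraries (-0.21, limma adjusted p = 4.22e-05). Psma4 had 66.8, 69.6 and 64.0 against 58.9, 58.9 and 57.9 (-0.19, limma adjusted p = 5.41e-04), but with chromosome medians removed it was at -0.02 (0.614). With the same removal Psmg2 was at -0.09 (limma adjusted p = 0.0449), Psmb1 at -0.09 (0.00324) and Psme1 at -0.26 (1.74e-05).

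The base and lid of SCC2 showed smaller changes. Among ATPases, Psmc6 (0.20), Psmc2 (0.11) and Psmc3 (0.07) rose and Psmc1 fell (-0.16, from 77.5 ± 1.27 to 69.2 ± 2.21 FPKM). Psmc4 (0.06) and Psmc5 (0.05) did not pass, though Psmc5 did without LLC1 replicate 2 (limma adjusted p = 0.0481). Psmd2 rose from 106 ± 2.54 to 121 ± 1.84 FPKM (0.19, limma adjusted p = 1.02e-05), but was at -0.02 (0.360) with chromosome medians removed. In the lid Psmd7 (0.15), Psmd13 (0.13), Psmd11 and Psmd14 (0.09 each) rose, and Psmd8 fell from 75.8 ± 1.89 to 70.8 ± 0.634 FPKM (-0.10, limma adjusted p = 0.00238). Psmd8 was thus the only regulatory gene below LLC1 by this test in both subclones.

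In the core of SCC2, Psma6 rose to 161, 163 and 163 FPKM (0.20, limma adjusted p = 1.54e-05) and Psma3 to 60.0, 59.3 and 61.5 (0.18). The catalytic genes split: Psmb5 rose (119, 124 and 125 FPKM; 0.15), Psmb7 fell (130.2, 128 and 128; -0.09) and Psmb6 did not pass (98.8, 97.9 and 98.5; -0.02). Among beta genes Psmb5 alone rose, while 5 of 7 alpha genes did, where 34.7% of all tested genes were higher. With chromosome medians removed Psma3 and Psma6 were still higher, and Psma1 (0.05, limma adjusted p = 0.132), Psma2 (0.04, 0.189) and Psma5 (0.07, 0.0788) did not pass. The beta sum divided by the alpha sum was 1.60, 1.57 and 1.59 in LLC1, 1.61, 1.60 and 1.61 in SCC1 and 1.39, 1.40 and 1.43 in SCC2, which lies below the rest with no overlap. Chromosome medians were not removed from these sums, and the ratio was not tested. Of the activators, Psme3 rose to 42.0, 43.5 and 43.7 FPKM (0.20) and Psme1 fell, while Psme2 (32.2, 31.3 and 31.9 FPKM; 0.04) did not pass. Psme4 (22.9, 23.3 and 23.3 FPKM; -0.06, limma adjusted p = 0.0540) did not pass with all libraries and did without SCC1 replicate 2 (0.0448). It also passed as lower with quantile normalization (-0.07, limma adjusted p = 0.0255) and with limma-voom on fragments (-0.06, 0.0208). With chromosome medians removed Psme4 was at -0.01 (limma adjusted p = 0.644).

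**Figure D4:**
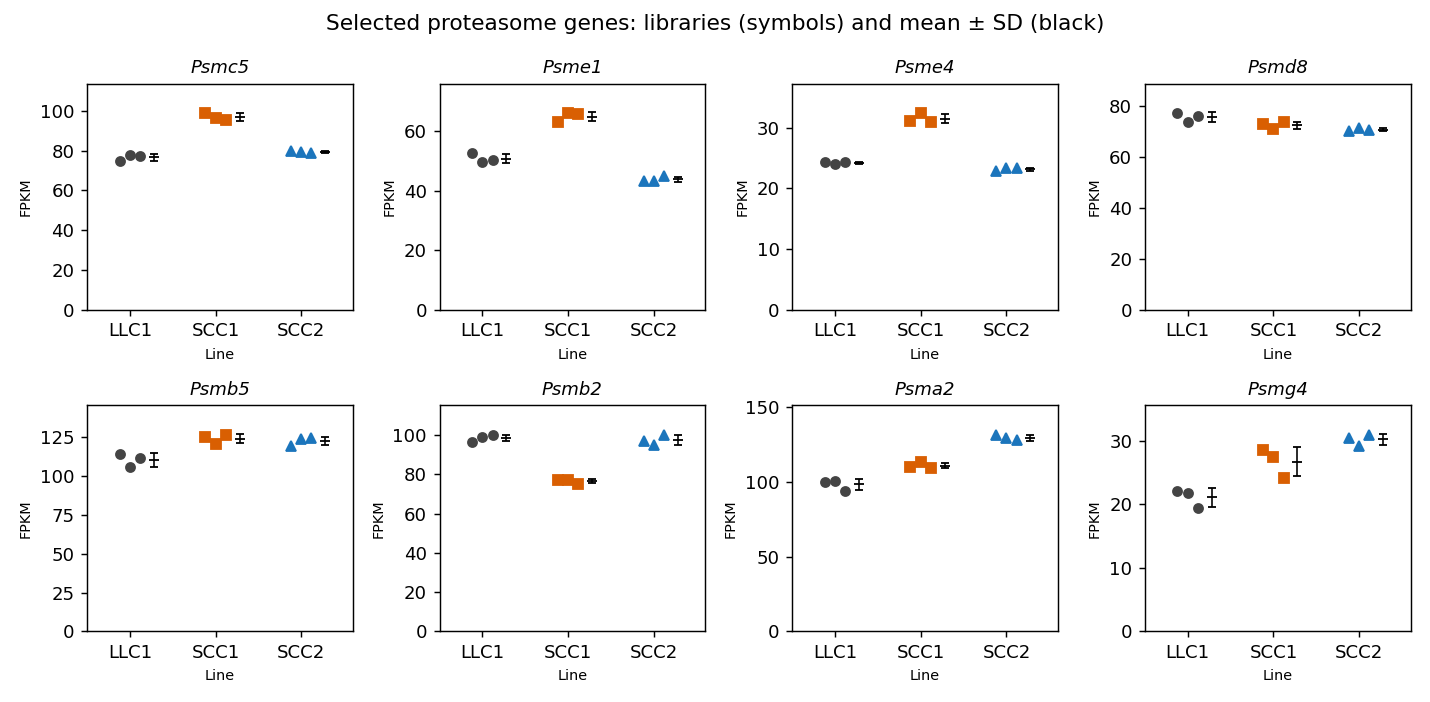
FPKM of 8 proteasome genes in each library (symbols as in the plot of all levels), with mean and SD in black, on axes that start at 0. Psmc5, Psme1 and Psme4 are highest in SCC1, Psmb2 is lowest there at 75.4 to 77.3, and Psma2 and Psmg4 are highest in SCC2.

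The subclones were also compared with each other, which tests directly where they differ. Here 20 of 27 regulatory genes were lower in SCC2 than in SCC1, 1 was higher and 6 did not pass, where 39.4% of all tested genes were lower and 37.0% higher (76.3% in either direction). The median was -0.20, beside -0.0029 over all tested genes. Of 14 core genes 6 were lower and 4 higher, with a median of -0.025. Both comparisons with LLC1 share its libraries, and this one shares those of the subclones, so the 3 are not independent.

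The largest falls from SCC1 to SCC2 were in Psmg2 (39.2, 41.9 and 41.3 FPKM in SCC1; -0.59, limma adjusted p = 5.20e-08), Psme1 (-0.56, limma adjusted p = 5.08e-09), Psmc3ip and Psmc1. Psmc3ip, low in all lines, had 5.61, 5.59 and 6.36 FPKM in SCC1 and 3.48, 4.15 and 4.41 in SCC2 (-0.45, limma adjusted p = 1.54e-04), with 4.38, 4.15 and 4.89 in LLC1. Psmc1 had 94.4, 95.2 and 93.6 FPKM in SCC1, 71.6, 68.7 and 67.3 in SCC2 and 76.3, 77.6 and 78.8 in LLC1 (-0.44, limma adjusted p = 9.36e-09). Psme4 was lower by 0.43 on the log2 scale, at 23.2 ± 0.236 FPKM in SCC2 against 31.5 ± 0.797. With chromosome medians removed Psmg2 was at -0.13 (limma adjusted p = 0.00909), Psmc3ip at -0.24 (0.0146) and Psme4 at -0.21 (1.67e-05). Psme1 was then at -0.59 (limma adjusted p = 6.60e-09) and Psmc1 at -0.42 (1.70e-08). The 4 activators were all lower in SCC2, without overlap, as was so for 77.9% of all tested genes.

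The largest rises from SCC1 to SCC2 were in Psmb2, Psma6, Psma2 and Psmg1. Psmb2 had 96.9, 95.3 and 100.2 FPKM in SCC2, which overlapped LLC1 (0.34 against SCC1, limma adjusted p = 5.24e-08). Psma6 was 0.27, Psma2 0.22 and Psmg1 0.19 above SCC1. With chromosome medians removed Psmb2 was at 0.05 (limma adjusted p = 0.0665) and Psma2 at -0.04 (0.198), and neither passed. Psma6 was still higher (0.29, limma adjusted p = 7.38e-07). In the SCC1 libraries Psma2 had 110.1, 113 and 109.8 FPKM and Psmg1 21.8, 21.2 and 20.2, both below every SCC2 library. Psmd2 was the single regulatory gene higher in SCC2 (0.12, limma adjusted p = 1.85e-04), and it turned lower (-0.17, 2.74e-05) with chromosome medians removed. So did Psmg1 (-0.10, limma adjusted p = 0.0102). Psmb6, lower by this test (-0.12), turned higher (0.09, limma adjusted p = 0.00312).

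Some of these differences followed the chromosome. The tested genes of chromosome 4, which holds Psmb2, had a median log2 change of -0.33 in SCC1, next to -0.36 for Psmb2. With chromosome medians removed Psmb2 was at -0.03 (limma adjusted p = 0.288). Chromosome 13, which holds Psma2 and Psmg4, had a median of 0.35 in SCC2. With it removed, Psma2 was at 0.04 in SCC2 over LLC1 (limma adjusted p = 0.189) and Psmg4 at 0.14 (0.0457). Neither stayed above SCC1 (-0.04 and -0.08, limma adjusted p = 0.198 and 0.208). Psmg2, whose chromosome had medians of 0.22 in SCC1 and -0.22 in SCC2, was at 0.03 (limma adjusted p = 0.458) and -0.09 (0.0449).

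The regulatory genes lie on 11 chromosomes, and 26 of 27 were above the median of their own chromosome in SCC1. With chromosome medians removed, 20 of the 27 were higher and 1 lower in SCC1 than in LLC1, where 30.0% of all tested genes were higher and 30.8% lower, and their median was 0.16. The core median was then 0.013, with 6 of 14 higher and 2 lower. The 6 regulatory genes that no longer passed were Psmc3ip, Psmd10, Psmd11, Psmd3, Psme2b and Psme3ip1. Psmd8 remained lower (-0.09, limma adjusted p = 0.00392). Of the activators, Psme1 was at 0.34, Psme4 at 0.20 and Psme3 at 0.17. In SCC2 against LLC1, 9 of the 27 regulatory genes were higher and 4 lower, where 29.3% of all tested genes were higher and 29.6% lower. In SCC2 against SCC1 the regulatory median was -0.09, with 15 lower and 2 higher, where 33.7% of all tested genes were lower and 33.3% higher. The 2 were Psme3, which turned from -0.15 to 0.07 (limma adjusted p = 0.0167), and Psmd11, which turned from -0.14 to 0.08 (0.0181). In SCC2 against LLC1 the regulatory genes Psmc2, Psmd1, Psmd2, Psmd7, Psmd10, Psme2b and Psme3ip1 no longer passed, nor did the core genes Psma1, Psma2, Psma4, Psma5, Psma7, Psmb3 and Psmb7, while Psmc5, Psmd12 and Psmd4 (-0.08) newly passed. Why genes of a chromosome moved together was not tested.

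**Figure D5:**
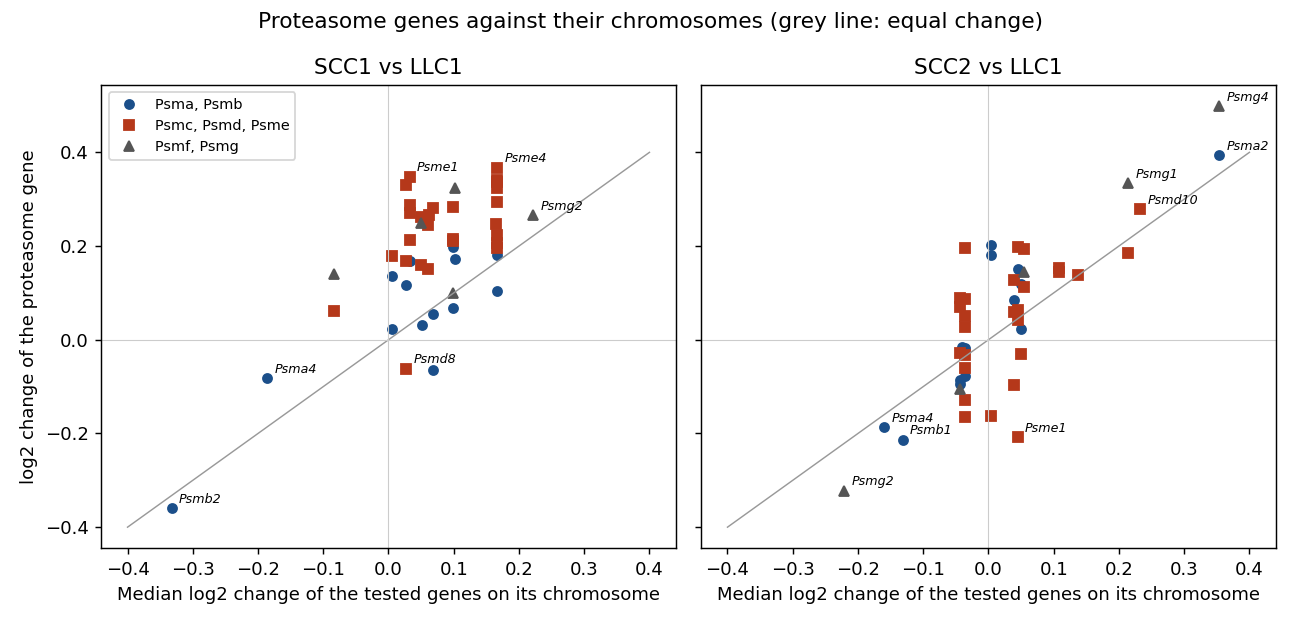
log2 change of each proteasome gene (vertical) against the median log2 change of the tested genes on its chromosome (horizontal) for SCC1 (left) and SCC2 (right) against LLC1, with a grey line of equal change. In SCC1 the red squares stand above the line except for Psmd8, and Psmb2 lies near it at -0.33 and -0.36. In SCC2 Psma2 lies near the line at 0.35 and 0.39.

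Other genes around the proteasome were taken from a list of 44 partners, of which 42 were tested. In SCC1 20 rose (47.6%, against 39.2% of all tested genes) and 13 fell (31.0% against 30.9%), with a median of 0.058. In SCC2 22 rose (52.4% against 34.7%) and 9 fell (21.4% against 32.9%), with a median of 0.099, and between SCC1 and SCC2 22 were higher in SCC2 (52.4% against 37.0%) and 13 lower (31.0% against 39.4%). Nfe2l1 had 37.5 ± 0.701 FPKM in LLC1, 31.2 ± 0.246 in SCC1 and 43.9 ± 0.167 in SCC2. It was thus lower than LLC1 in SCC1 (-0.26, limma adjusted p = 6.96e-07) and higher in SCC2 (0.22, limma adjusted p = 2.96e-06), with no overlap between the lines.

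The largest partner changes in SCC1 were in Psmb10, in Ecpas, which encodes the scaffold ECM29 (27.8 ± 0.21 to 17.2 ± 0.412 FPKM, -0.67), and in Zfand2a, a stress-induced cofactor (6.23 ± 0.149 to 9.86 ± 0.208, 0.59). In SCC2 the largest were Faf2, a cofactor of the unfoldase VCP (25.9 ± 0.444 to 37.4 ± 0.772 FPKM, 0.51), Zfand2a (0.46) and the shuttle Ubqln1 (48.0 ± 0.447 to 65.5 ± 1.31, 0.44). With chromosome medians removed Ubqln1 was lower in SCC2 than in SCC1 (-0.10, limma adjusted p = 0.00159) rather than higher (0.16). Of 10 ubiquitin-activating and conjugating enzymes 8 rose in SCC2 and 0 fell, where 34.7% of all tested genes were higher and 32.9% lower. In SCC1 4 rose and 3 fell, near the 39.2% and 30.9% of all tested genes. Txnl1, a thioredoxin-like protein bound to the proteasome, had 67.8 ± 0.776 FPKM in SCC1 and 44.9 ± 1.41 in SCC2 (-0.58), and Sem1 179.5 ± 1.22 and 119.9 ± 5.73 (-0.58).

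The immunoproteasome genes, whose products replace the catalytic subunits after interferon, were far lower than Psmb5, Psmb6 and Psmb7 in each line. Psmb10 had 5.87 ± 0.417 FPKM in LLC1, 10.2 ± 0.188 in SCC1 and 5.45 ± 0.272 in SCC2, so SCC1 was higher (0.70, limma adjusted p = 1.36e-07). Psmb8 had 1.19 ± 0.165, 0.655 ± 0.0837 and 1.14 ± 0.183 FPKM, near the minimum of 1 FPKM. It was lower in SCC1 than in LLC1 (-0.40, limma adjusted p = 5.45e-04), so these 2 genes went opposite ways. Psmb9 had at most 0.644 in any library and was not tested.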

How the data were processed

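RNA-seq of 9 libraries, 3 per line, gave the deposited table. The authors trimmed reads with Trimmomatic, aligned them with hisat2 and computed FPKM per gene with cufflinks, per the series' design text, and the builds GRCm38 and mm10 are named in the submitters' processing notes. Tool versions were not stated there, and the labels and the design text name different kits (SMARTER with RNeasy, TruSeq Stranded with mirVana).

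From the FPKM, genes of at least 1 FPKM in at least 3 libraries (10519) were fitted as log2(FPKM + 1) in limma 3.58.1 (R 4.3.3, trend and robust) over all 9 libraries. P-values were Benjamini-Hochberg adjusted over all genes tested, with a threshold of 0.05. A fold change on this scale understates the change of low genes. All 12270 genes above 0 in every library came out as whole fragments within 0.001, which gave the depths and a limma-voom alternative. Other alternatives were another pseudocount (0.1), no filter or a filter of 5 FPKM, quantile, median-of-ratios and chromosome-median scaling, a plain variance model, only the lines compared, a replicate block, and leaving out each library. The scripts were tested on simulated data.

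The members and lists were chosen with earlier results of these data known. Per-library values are given for the 4 largest rises and the 4 largest falls among called members in each comparison (only 3 fell in SCC1 against LLC1), for Psmb5, Psmb6 and Psmb7, for Psme1 to Psme4. Of other genes, Adrm1, Sem1, Pomp, Psmb8, Psmb9, Psmb10 and Nfe2l1 are named, with the 3 partners of largest change in each comparison. Means, SDs, sums and ratios are of FPKM. Motifs were chosen after the data were known. Psma8 and the partner Paaf1 were not analysed here.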

Additional observations from a re-analysis of the deposited data

How the results depend on the processing

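Over 21 alternatives the number of proteasome genes higher in SCC1 than in LLC1 was 29 to 39 (39 with all libraries), in SCC2 than in LLC1 14 to 22 (21), and in SCC2 than in SCC1 5 to 7 (7). Regulatory genes higher in SCC1 numbered 20 to 26. Removing chromosome medians changed most: the core median in SCC1 went from 0.086 to 0.013 (0.048 with quantile normalization), the regulatory median from 0.25 to 0.16, the regulatory median of SCC2 against SCC1 from -0.20 to -0.092, and the genes lower in SCC2 than in LLC1 from 11 to 6. It also reversed Faf2 (-0.0017), Psma4 (0.10), Psma7 (-0.032), Psmb6 (-0.067) and Psmf1 (-0.00037) in SCC1 against LLC1, Psmd2 (-0.025) in SCC2 against LLC1, and Psma2 (-0.037), Psmb6 (0.093), Psmc3 (0.0024), Psmd11 (0.079), Psmd2 (-0.17), Psme3 (0.070), Psmg1 (-0.10), Psmg4 (-0.084) and Ubqln1 (-0.096) in SCC2 against SCC1. The construction of that setting subtracts each chromosome's change. A sign change of a value that passed in neither fit was not counted. Genes lower in SCC1 numbered 3, and 1 with limma's plain variance model (the cause was not tested) or 1 to 4 leaving out a library, with 1 without LLC1 replicate 1 or SCC1 replicate 2. Leaving out a library gave 37 to 39, 19 to 22 and 6 to 7 genes higher, and 9 to 12 and 27 to 29 lower, in the order above. Of 1764 values of the 93 single-gene results followed through every alternative, which leave out Psma7, Psmf1, Psmd2, Psmc3 and Psmd11, 1712 kept direction and side of the threshold, 27 lost and 16 gained a call and 9 reversed. Psmg4 against SCC1 was lost without SCC1 replicate 3 (adjusted p = 0.0833) or SCC2 replicate 3 (0.0613), and Psma4 without SCC1 replicate 1 (0.0792) or SCC2 replicate 3 (0.0529). Same-numbered libraries share only a number: their deviations correlated at -0.0683 to 0.0890 over 9 pairs. A fit with the replicate block gave 39, 22 and 7 genes higher and 4, 11 and 28 lower. Without Psmc3ip, Psme2b and Psme3ip1, an alternative chosen after seeing the data, 23 of 24 regulatory genes rose in SCC1. With 3 libraries a line and at least 170 fragments per tested gene and library, depth limits Psmc3ip (170 to 314 fragments), Psme2b (183 to 276), Psmg4 (184 to 316) and Psmg3 (222 to 321) most among the members tested.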
